A study of Mus musculus with 54 samples.

Results

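Promoter peaks were defined as the regions of open chromatin whose centre lay within 1 kb of a transcription start site (TSS) of any transcript of a protein-coding gene in GENCODE release M21, on the 19 autosomes. They numbered 18977 of the 111741 autosomal peaks (17.0%, Wilson 95% confidence interval 16.8 to 17.2) and of 113737 peaks in all, and they held 30.2% of the autosomal bases covered by peaks. The peaks came from ATAC-seq, in which the Tn5 transposase cuts and tags accessible DNA, on ZHBTc4 mouse embryonic stem (ES) cells. In these cells doxycycline (dox) shuts off the untagged Pou5f1 that encodes OCT4. They also carried mCherry-OCT4-AID, a lentiviral OCT4 fusion expressed at a low level from the PGK promoter and degraded on addition of auxin (IAA, indole-3-acetic acid), together with TIR1, the plant receptor for auxin, and the cell cycle reporter YPet-MD. Cells grew in serum with LIF, CHIR99021 and PD184352, and all 54 samples received dox. In 22 of them cells had 26 hr of dox with or without 2 hr of 500 nM IAA and were sorted into EG1, LG1 and S phase, with 3 replicates each, and SG2, with 2. In 16 a treatment of 2.5 hr with or without IAA was followed by a washout of 4.5 hr and the same sort, with 31 hr of dox and 2 replicates each. The last 16, unsorted and given 34 hr of dox, had 2 replicates of each IAA exposure, which was none, 30 min, or a number of hours out of 1, 2, 3, 4, 6 and 10. One list of merged peaks, without a value for any sample, served all of these groups, so treatments and phases were not compared here. At Pou5f1, reads of the engineered and the native gene cannot be told apart in such a list.

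A promoter is the stretch of DNA at which RNA polymerase II and its general factors assemble and begin transcription. Most promoters of broadly used mammalian genes lie in CpG islands, stretches that have kept the dinucleotide CpG because they are usually unmethylated, and these are commonly free of nucleosomes and start transcription at several nearby positions. Promoters of tissue-restricted genes more often have few CpGs and a sharp start at a TATA box. Many neighbouring genes share 1 open region between start sites that face away from each other, which is called a bidirectional promoter.

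The letters of 8 promoters show the range of CpG content among these genes. CpGs are in capitals, and each stretch of a single gene runs 5′ to 3′ from at most 120 bases before the TSS to 30 bases from it on. Hnrnpab (an RNA-binding protein) and Srsf6 (a splicing factor) had the highest CpG content of the single-TSS and multiple-TSS promoter peaks, and Alyref and Anapc11 (an mRNA export factor and a subunit of the anaphase-promoting complex) that of the bidirectional ones whose stretch between the TSSs lay outside exons. Zfp944 and Zfp758 (zinc finger genes) were the closest divergent pair over 30 bp apart among the listed genes, Ythdc1 (a reader of methylated RNA) gave the peak with the fewest CpGs that could be shown, Tagap1 is a CpG-rich promoter without a peak, and Pou5f1 and Nanog encode core pluripotency factors. Stretches of pairs are on the plus strand and include 15 bases beyond each TSS. Positions are of GRCm38.p6.
Pou5f1, chr17:35505898-35506047, plus strand: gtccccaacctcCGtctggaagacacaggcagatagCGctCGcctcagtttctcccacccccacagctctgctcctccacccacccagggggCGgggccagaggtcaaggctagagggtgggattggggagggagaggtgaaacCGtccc
Nanog, chr6:122707369-122707518, plus strand: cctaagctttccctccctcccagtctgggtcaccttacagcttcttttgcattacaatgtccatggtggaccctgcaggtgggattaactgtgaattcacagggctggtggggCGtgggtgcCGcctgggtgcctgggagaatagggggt
Hnrnpab, chr11:51606818-51606967, minus strand: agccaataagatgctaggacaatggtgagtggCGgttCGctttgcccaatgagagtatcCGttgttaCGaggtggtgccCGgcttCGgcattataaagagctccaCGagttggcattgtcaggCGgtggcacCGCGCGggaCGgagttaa
Srsf6, chr2:162931408-162931557, plus strand: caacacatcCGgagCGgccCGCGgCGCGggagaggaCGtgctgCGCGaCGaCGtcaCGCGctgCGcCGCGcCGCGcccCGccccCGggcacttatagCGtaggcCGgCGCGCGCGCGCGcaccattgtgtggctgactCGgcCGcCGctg
Ythdc1, chr5:86831701-86831792, plus strand: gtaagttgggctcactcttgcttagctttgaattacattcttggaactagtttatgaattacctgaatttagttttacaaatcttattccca
Tagap1, chr17:6961127-6961276, minus strand: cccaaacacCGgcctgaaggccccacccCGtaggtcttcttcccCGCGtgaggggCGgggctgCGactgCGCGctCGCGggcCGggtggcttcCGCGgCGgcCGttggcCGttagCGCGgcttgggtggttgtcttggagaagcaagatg
Alyref and Anapc11, chr11:120598351-120598435, plus strand: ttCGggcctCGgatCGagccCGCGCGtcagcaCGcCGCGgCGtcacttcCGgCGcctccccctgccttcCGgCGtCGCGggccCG
Zfp944 and Zfp758, chr17:22361386-22361467, plus strand: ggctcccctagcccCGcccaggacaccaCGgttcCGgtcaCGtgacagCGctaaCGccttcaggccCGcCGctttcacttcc

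Srsf6 showed 31 CpGs in 150 bases, Tagap1 18 and Hnrnpab 12, against 5 at Pou5f1 and 2 at Nanog. The 85 bases shared by Alyref and Anapc11 held 17, and the 92 bases at Ythdc1 held none. Pou5f1 nevertheless lay in a peak of 2335 bp (chr17:35504919-35507253), whereas the peak at Nanog was 254 bp wide (chr6:122707567-122707820) and its most upstream TSS there, at 122707489, lay outside it. The low-CpG peak at Ythdc1 (chr5:86831069-86831285) lay near an internal start of the gene, outside the stretch shown, and the gene had another peak of 1246 bp (chr5:86803714-86804959) in the high CpG class.

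Promoter peaks gathered tightly at the TSS. The distance from a peak centre to the nearest protein-coding TSS had a median of 126 bp (quartiles 46 and 303 bp), and 15295 peaks (80.6%) held such a TSS. Centres fell at a density of 80.9 per bp of distance over the first 100 bp, 12.1 between 251 and 500 bp, and 5.06 between 901 and 1000 bp. Just beyond the limit of 1 kb, between 1001 and 1100 bp, the density was 4.47, and between 2001 and 5000 bp it was 2.76. Peaks just inside and just outside the limit were also alike in width, with medians of 410 bp (901 to 1000 bp away, n = 506) and 413 bp (1001 to 1100 bp away, n = 447), against 1114 bp within 100 bp of a TSS (n = 8168).

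Compared with other autosomal peaks, promoter peaks were wider and richer in CpGs, also against peaks at start sites of non-coding genes. CpG content is given as the observed over expected ratio (CpG o/e) in the 1000 bp around the peak centre, where 1 means as many CpGs as the C and G content predicts. It averaged 0.607 ± 0.024 in promoter peaks, 0.338 ± 0.027 in the 4201 peaks near only a non-coding TSS and 0.235 ± 0.012 in the 88563 remaining peaks (means over autosomes ± SD, n = 19). The median width was 1071 ± 38.9 bp in promoter peaks and 522 ± 53.2 bp in those at non-coding TSSs, a difference of 549 ± 54.6 bp that held on all 19 autosomes. A peak was placed in the high CpG class when any 500 bp window within 1 kb of its centre had a CpG o/e above 0.75 and more than 55% G and C, in the low class when none exceeded 0.48, and otherwise in the intermediate class. High CpG peaks made up 58.0% of promoter peaks, 13.1% of peaks at non-coding TSSs and 1.87% of the remaining peaks, so that 11014 of 13222 high CpG peaks (83.3%) lay at protein-coding promoters. Of the 4414 autosomal peaks of at least 1500 bp, 3278 (74.3%) did so. Repeat-masked bases took 9.10% of an average promoter peak and 22.9% of an average remaining peak.

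By the arrangement of their start sites, 6775 promoter peaks (35.7%) had a single TSS position within 1 kb, 10932 (57.6%) had multiple positions on 1 strand, 1121 (5.91%) were bidirectional, with a minus-strand start to the left of a plus-strand start, and 149 (0.785%) had starts on both strands that faced each other. Among those with multiple positions, 10753 belonged to 1 gene and 179 to neighbouring genes on the same strand. The largest number of TSS positions at 1 peak was 38.

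Peaks widened from single through multiple to bidirectional layouts. The median width per autosome averaged 772 ± 63.0 bp for single, 1150 ± 33.5 bp for multiple and 1291 ± 46.8 bp for bidirectional promoters (SD, n = 19 autosomes). Bidirectional peaks exceeded single ones by 519 ± 62.7 bp and multiple ones by 141 ± 46.1 bp, and multiple exceeded single by 378 ± 67.6 bp, each on all 19 autosomes. CpG o/e followed the same order, with means of 0.492 ± 0.034, 0.659 ± 0.022 and 0.768 ± 0.027. Autosomes were the units of these tests, in an exact two-sided sign-flip permutation test with Benjamini-Hochberg adjustment over 26 tests. All 6 layout differences had an adjusted p of 7.63e-06 in this permutation test, from the smallest p that 19 autosomes can give, 3.81e-06. With start sites of coding transcripts only, bidirectional peaks exceeded single ones by 269 bp and 0.173 in CpG o/e, and multiple exceeded single by 135 bp and 0.079. Autosomes are stretches of 1 genome read from 1 list, not repeats of the experiment.

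The layouts also differed in CpG class. High CpG peaks made up 37.1% of single, 67.6% of multiple and 88.5% of bidirectional promoters. Within the high CpG class alone, a comparison added after the values were seen, median widths were 1235 ± 55.3, 1270 ± 34.5 and 1325 ± 50.1 bp, and the differences shrank to 89.5 ± 73.3 bp between bidirectional and single (adjusted p = 0.000317, exact permutation test, 17 of 19 autosomes) and 34.4 ± 57.9 bp between multiple and single (adjusted p = 0.0377, exact permutation test, 14 of 19 autosomes). The other classes are given without a test. Medians over all peaks were 660 bp for 2080 single, 905 bp for 2462 multiple and 1046 bp for 117 bidirectional promoters in the intermediate class, and 413 bp for 2183 single, 514.5 bp for 1078 multiple and 453 bp for 12 bidirectional ones in the low class. The number of start sites on a strand was compared in the same way. Over all one-strand promoters the median width rose from 761 bp with 1 TSS position to 1085 bp with 2, 1141 bp with 3, 1176 bp with 4 to 5 and 1208 bp with 6 to 9. Within the high CpG class these medians lay between 1234 and 1275 bp, and only the 144 peaks with 10 or more positions were wider, with a median of 1398 bp.

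**Figure D1:**
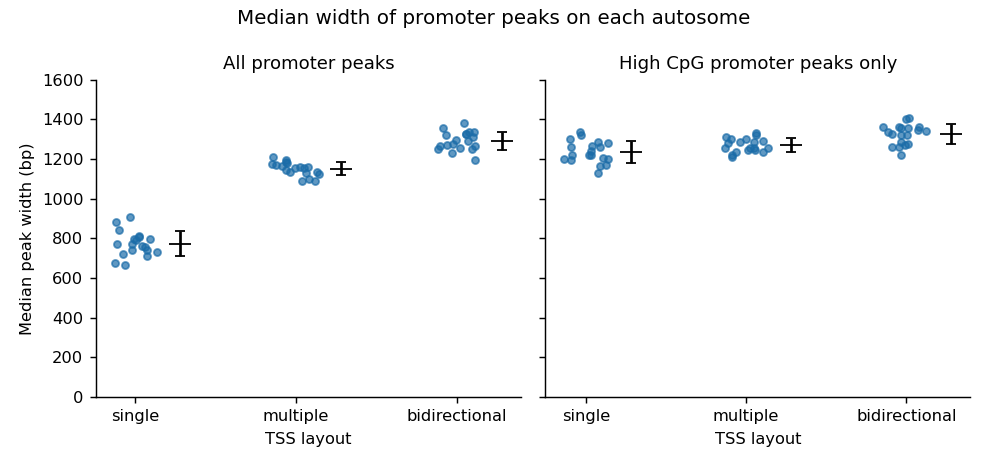
Median width (bp) of promoter peaks on each of the 19 autosomes (points) by TSS layout, for all promoter peaks (left) and for those of the high CpG class (right), with the mean and SD over autosomes as a bar beside each group. Single promoters averaged 772 bp on the left and 1235 bp on the right, close to the 1325 bp of bidirectional promoters.

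Bidirectional peaks usually spanned both start sites. The nearest divergent TSSs lay a median of 104 bp apart (quartiles 55 and 197 bp), and 1038 of 1121 peaks (92.6%) held both. Peak width had a median of 1271 bp for TSSs 1 to 100 bp apart (n = 551), 1270 bp for 101 to 200 bp (n = 293), 1385 bp for 201 to 400 bp (n = 169) and 1392 bp for 401 to 700 bp (n = 73), with quartiles of 1099 and 1473 bp in the first and 1082 and 1665 bp in the last of these ranges. The share of peaks that held both TSSs was 97.5% in the closest range, and 14 of the 35 peaks with TSSs 701 to 2000 bp apart held both. The centre lay a median of 125 bp from the midpoint between the TSSs and 49 bp from the nearer TSS.

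**Figure D2:**
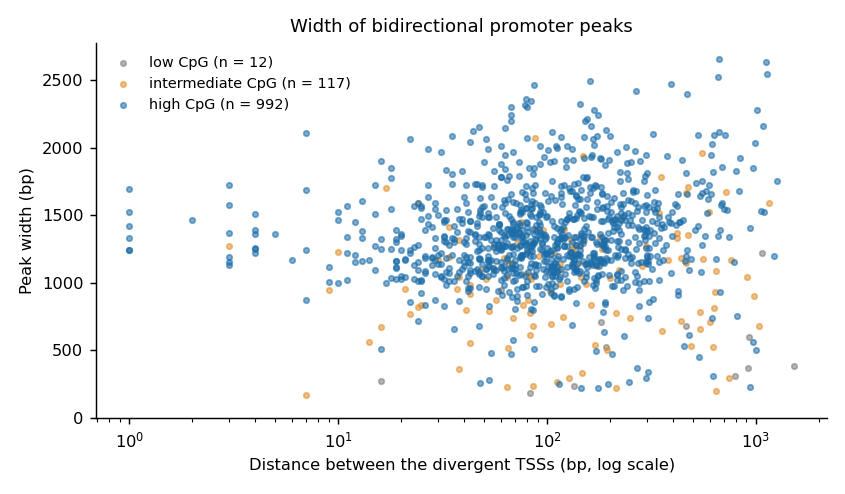
Width (bp) of each of the 1121 bidirectional promoter peaks against the distance between its nearest divergent TSSs (bp, log scale), coloured by CpG class. The quartiles of all widths are 1103 and 1521 bp, and the 12 low CpG peaks have a median of 453 bp.

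Other one-strand promoters had a divergent partner that was a long non-coding RNA. Such a start lay on the opposite strand and upstream at 255 of 6775 single (3.76%) and 951 of 10932 multiple promoters (8.70%). Single promoters with such a partner had a median width of 1221 bp against 744.5 bp without, and 70.6% against 35.8% were of the high CpG class. For multiple promoters the widths were 1297 and 1131 bp and the shares 84.3% and 66.0%.

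Width also differed between CpG classes. The median width per autosome averaged 1269 ± 28.2 bp in the high and 444 ± 28.3 bp in the low class, a difference of 825 ± 39.9 bp on all 19 autosomes (adjusted p = 7.63e-06, exact sign-flip permutation test). The 11014 high CpG peaks had quartiles of 1037 and 1527 bp, the 4684 intermediate ones 467 and 1094 bp, and the 3279 low ones 267.5 and 720.5 bp. Low CpG single promoters, with a median of 413 bp, were close in width to the peaks away from any TSS, with a median of 379 bp. Low CpG was rare in the bidirectional layout, in 12 of 1121 peaks.

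The position of a peak around a single TSS also differed by class. Over all 6775 single promoters the centre lay downstream of the TSS, inside the transcribed side, by 89.5 ± 18.6 bp (mean and SD of the medians over 19 autosomes, adjusted p = 7.63e-06, exact permutation test). The size of this offset is limited by the distance rule. It was 64.4 ± 18.2 bp with a limit of 500 bp and 121 ± 32.4 bp with 2500 bp, downstream on all 19 autosomes each time. The median offset was 137 bp in the high class (downstream in 70.5% of 2512 peaks), 78 bp in the intermediate class (59.0% of 2080) and -15 bp in the low class (48.6% of 2183). The TSS itself lay inside the peak at 85.0% of high, 57.4% of intermediate and 38.8% of low CpG single promoters. Where it did, high CpG peaks reached a median of 505.5 bp upstream (quartiles 346 and 697 bp) and 762 bp downstream (559 and 994 bp), and low CpG peaks 308 bp upstream and 258 bp downstream.

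**Figure D3:**
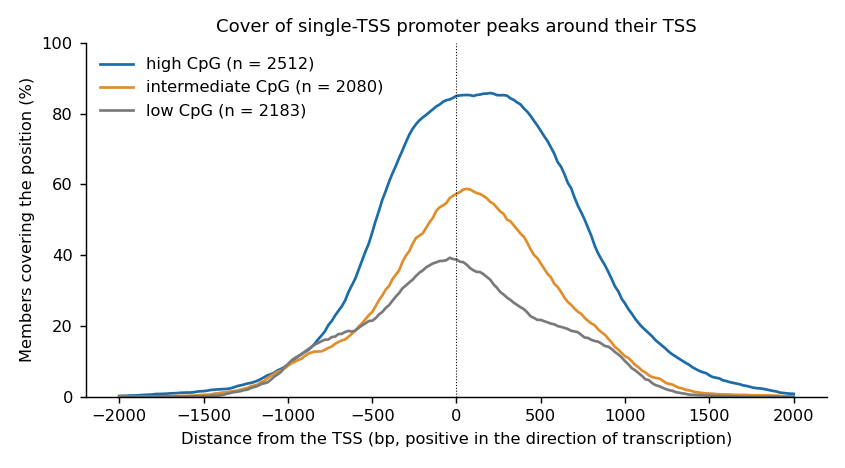
Share (%) of single-TSS promoter peaks that cover each position around their TSS, in steps of 20 bp, by CpG class, with positive distances in the direction of transcription. At 500 bp downstream 75.1% of high CpG peaks still cover the position against 46.3% at 500 bp upstream, whereas low CpG peaks are nearly symmetric, with 21.7% and 21.5%.

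Most genes with a promoter peak had 1, but genes with several starts could have many. Of the 20807 autosomal protein-coding genes, 11207 had 1 promoter peak, 2778 had 2, 744 had 3, 195 had 4 and 122 had 5 or more. The gene with the most was Pde4d, a cyclic AMP phosphodiesterase, with 10 peaks at 20 TSS positions. Rgs3, a regulator of G protein signalling, had 9, and Abr, Arhgef2 and Dab2ip, regulators of small GTPases, had 8 each.

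Upstream starts had a peak more often than internal ones. In the 12215 genes with annotated TSSs over 1 kb apart, the most upstream TSS had a peak in 72.9% of genes, and 28.9% of the 37524 TSSs more than 1 kb downstream of it did. The difference was 45.0 ± 5.51 percentage points over autosomes (adjusted p = 7.63e-06, exact permutation test, higher on all 19), and 29.1 points with coding transcripts only. Both kinds of start had a peak in 3331 genes, only the upstream one in 5571, only a downstream one in 1114 and neither in 2199. Within CpG classes the difference was smaller for high CpG starts, at 98.6% of 6944 upstream and 93.0% of 4911 downstream TSSs, and for low CpG starts, at 510 of 3180 and 3008 of 22806. Intermediate starts had peaks at 73.9% of 2091 and 33.3% of 9807. By the type of the transcript, a peak was present at 67.2% of TSSs of transcripts subject to nonsense-mediated decay, 64.4% of those of coding transcripts, 49.3% of those of processed transcripts and 47.1% of those of transcripts with a retained intron.

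A promoter peak was present at 15046 of 20807 autosomal protein-coding genes, which is 72.3% and the background for the gene lists that follow. Genes were classed by the CpG content around the TSS of 1 reference transcript, with a peak at any TSS counted. Of 10528 high CpG genes 98.9% had a promoter peak (interval 98.7 to 99.1), of 3835 intermediate genes 78.2% (76.9 to 79.5) and of 6444 low CpG genes 25.3% (24.3 to 26.4). Over autosomes the high and low classes differed by 72.8 ± 5.37 percentage points (adjusted p = 7.63e-06, exact permutation test, on all 19). Leaving out olfactory and vomeronasal receptor genes, most of which are of the low class, gave 30.6% in that class. By autosome the share ran from 60.1% on chromosome 14 to 83.4% on chromosome 12, and without those receptors from 62.9% on chromosome 14 to 83.4% on chromosome 12. Genes whose TSS lay within 1 kb of a divergent coding TSS had a peak in 2280 of 2350 cases. In the high CpG class these and other genes differed by only 0.693 ± 2.04 percentage points (adjusted p = 0.235, exact permutation test), with 99.4% of 1914 and 98.8% of 8614 having a peak. With a limit of 500 bp in place of 1 kb this difference was 2.24 points and passed the threshold (adjusted p = 0.00183, exact permutation test). In the low class the shares were 73.8% of 141 and 24.2% of 6303.

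The 5761 genes without a promoter peak were mostly CpG-poor. Of these, 4813 (83.5%) were of the low, 835 of the intermediate and 113 of the high class, and 1358 were olfactory or vomeronasal receptors. The nearest peak centre lay a median of 11255 bp from any of their TSSs (quartiles 3928 and 29332 bp). It was within 2500 bp for 858 genes (14.9%) and beyond 50 kb for 874 (15.2%). For 22 genes a TSS lay inside a wide peak whose centre was more than 1 kb away.

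High CpG genes without a peak often had a promoter that occurs more than once in the genome. To describe this, a gene's promoter was called repeated when at least 50% of its 31-base words, taken every 10 bases from 250 before to 50 after the TSS, occurred elsewhere in GRCm38.p6 on either strand, a measure chosen after the values were seen. It held for 57 of the 113 high CpG genes without a peak (50.4%, interval 41.4 to 59.5) and for 67 of the 10415 with one (0.643%, 0.507 to 0.816). Among high CpG genes whose promoter was not repeated, 10348 of 10404 (99.5%) had a peak, against 67 of 124 (54.0%) where it was. The same contrast stood at 79.6% against 39.1% in the intermediate and 28.3% against 7.07% in the low class. The study's methods describe removing peaks that overlap blacklisted regions or peaks of Input samples, which was not checked on the list, and how multiply aligned reads were treated is not given in the sources used here. The part of these steps and of repeated sequence in the counts was not tested. Of the 20 high CpG genes without a peak on chromosome 14, 17 had a repeated promoter, and of the 18 on chromosome 4, 15 had.

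**Figure D4:**
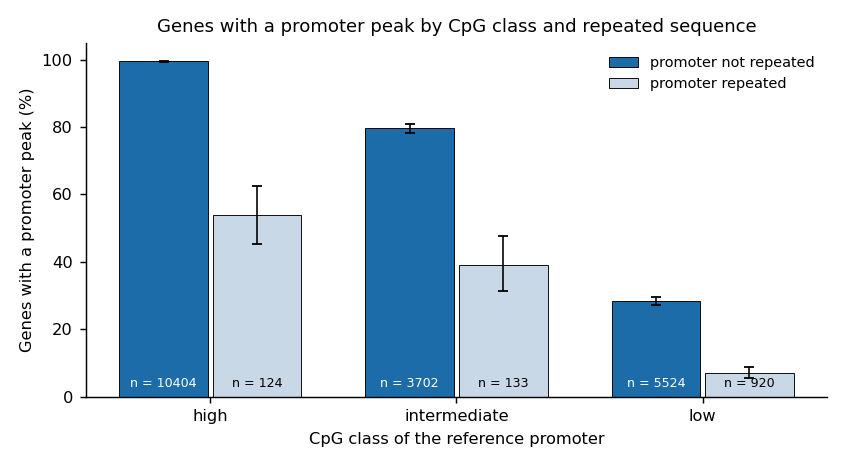
Share (%) of autosomal protein-coding genes with a promoter peak by CpG class of the reference promoter, for promoters that are not repeated in the genome (dark bars) and for repeated ones (light bars), with the number of genes in each bar and Wilson 95% intervals as error bars. The share with a peak at any TSS was lower for genes with a repeated promoter in all 3 classes, at 54.0% against 99.5% in the high class. This is a description without a test.

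The named genes illustrate both kinds. The 5 high CpG genes without a peak that had the highest CpG o/e were Tagap1 (1.01), BC107364 (1.00), B3glct (0.971) and the histone genes Hist1h2ap (0.943) and Hist1h2ao (0.928). All but B3glct, which encodes a glucosyltransferase, had a repeated promoter, and the nearest peak centre to B3glct lay 4520 bp away. Among the 56 high CpG genes without a peak whose promoter was not repeated, 37 had a peak centre within 2500 bp and 11 of these lay with a TSS inside that peak. Nefm, a neurofilament gene, Mest, an imprinted gene, and Adra1a, an adrenergic receptor gene, were among the 19 others, with the nearest centre 40323, 29965 and 233399 bp away. These 3 were picked after their values were seen.

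Genes that every dividing cell uses nearly all had a promoter peak. All 75 mitochondrial ribosomal protein genes, 38 proteasome subunits, 37 aminoacyl-tRNA synthetases, 20 genes of replication origins and their licensing, 20 cyclins, cyclin-dependent kinases and their inhibitors, and 13 subunits of RNA polymerase II did so, against 72.3% of all genes. These lists were also CpG-rich, with 76.3% to 95% of their genes in the high class against 50.6% of all autosomal genes. Of 79 cytosolic ribosomal protein genes 77 had a peak, and the 2 without were Rpl3l and Rpl39l, tissue-restricted relatives of Rpl3 and Rpl39. The single exception among 21 spliceosomal genes was Sf3b5, a subunit of SF3b, whose nearest peak centre lay 3238 bp away. The widest promoter peak of a cytosolic ribosomal protein gene had a median width of 1525 bp, from 913 to 2869 bp, against 1221 bp over all genes with a peak, and that of mitochondrial ribosomal proteins 1167 bp. The widest peak of a gene was bidirectional for 2132 of all 15046 genes with a peak (14.2%). It was so for 8 of 20 replication genes, 5 of 13 RNA polymerase II subunits, 26 of 75 mitochondrial ribosomal proteins, 6 of 20 spliceosomal genes, 10 of 37 synthetases, 8 of 38 proteasome subunits, 15 of 77 cytosolic ribosomal proteins and 1 of 20 cyclins, kinases and inhibitors.

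Histone genes form dense clusters in which divergent pairs share a promoter. Among 67 replication-dependent histone genes 62 had a promoter peak, with a median width of 1303 bp, and it was bidirectional for 25 of them. At 14 peaks the nearest divergent TSSs belonged to 1 of 11 pairs of histone genes, 176 to 1132 bp apart (median 279 bp), and these peaks were 224 to 2541 bp wide (median 1152 bp). For 3 of the pairs there were 2 such peaks. Promoters were repeated for 10 histone genes, of which 6 had a peak. Of the 5 histone genes without a peak, Hist1h2ao, Hist1h2ap, Hist1h2bq and Hist1h2br had a repeated promoter and Hist1h1d, a linker histone gene, did not.

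Genes of the pluripotency network had promoter peaks of very different widths and CpG content. Of 22 naive pluripotency genes 21 had a peak (95.5%, interval 78.2 to 99.2), although only 11 were of the high CpG class and all 4 of the low class had one. The exception was Dppa3, a maternal factor also called Stella, with the nearest peak centre 1409 bp from its TSS. Klf4 had the widest peak (3392 bp), followed by Pou5f1 (2335 bp), Sox2 (2301 bp), which encodes the partner of OCT4, Prdm14 (2241 bp) and Nr5a2 (1800 bp). The narrowest were those of Nanog (254 bp), Dppa5a (620 bp) and Zfp42 (621 bp). Of these, Pou5f1 (CpG o/e 0.332) and Nr5a2 (0.090) were low CpG genes with wide peaks. The class of a gene was taken at its reference TSS and its width from its widest promoter peak, which could lie at another TSS. Lefty1 (932 bp) and Lefty2 (815 bp), secreted inhibitors of Nodal signalling, were the other low CpG members. Sall4, a zinc finger factor, had 4 promoter peaks, and Esrrb, a nuclear receptor, had 3. The list of genes assayed by RT-qPCR was chosen by the study and is no independent evidence. All 26 of its autosomal genes had a promoter peak.

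Promoter peaks were also found at lineage regulators, in lists to be read against the 72.3% of all genes. The intervals included that share for primed pluripotency (56.5 to 98.0), trophectoderm (59.0 to 93.8), endoderm (60.1 to 96.0) and mesoderm genes (68.5 to 98.7). A peak was found at 8 of 9 primed pluripotency genes, with none at Cer1, a secreted antagonist of the anterior endoderm, and at 14 of 17 trophectoderm genes, with none at Cga, Prl3d1 and Psg17, which encode placental or pituitary hormones and a placental glycoprotein. Of 14 endoderm genes 12 had a peak, and Hnf4a and Ttr, a nuclear receptor and a plasma carrier protein, had none. Tbx6 was the only one of 14 primitive streak and mesoderm genes without a peak, with a centre 1177 bp away. The widest peaks of these genes ran, against a median of 1221 bp over all genes, from 529 to 2506 bp (at Ascl2) in the trophectoderm list with a median of 1151 bp, from 633 to 2876 bp (at Cxcr4) in the endoderm list with a median of 1182 bp, and from 211 to 2716 bp (at Foxc1) in the mesoderm list with a median of 1448 bp. Gata3 had 6 promoter peaks and Tfap2a had 7. Of 39 Hox genes, which pattern the body axis, 36 had a peak, and those without were Hoxa3, Hoxb2 and Hoxb3, each with a peak centre within 2500 bp.

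Genes restricted to mature tissues had few promoter peaks, against 72.3% of all genes and 25.3% of low CpG genes. Among 32 such genes 6 had one (18.8%, interval 8.89 to 35.3), namely Cd3e (365 bp), Cela2a (201 bp), Ckm (934 bp), Gfap (867 bp), Krt14 (212 bp) and Mbp (1425 bp). Globin, insulin, albumin, apolipoprotein and protamine genes had none. None of the 32 was of the high CpG class and 22 were of the low class, and the interval of their share includes that of low CpG genes. Of 1128 olfactory receptors 81 had a peak (7.18%), of 327 vomeronasal receptors 16 (4.89%), of 64 defensins 4 and of 18 type I interferons 0, which allows a share of up to 17.6% (upper Wilson bound). A peak was found at 1 of 53 taste and trace amine receptors, Taar2 (803 bp), and at 1 of 57 keratin-associated protein genes, Krtap28-13 (791 bp). Where olfactory receptors had one it was narrow, with a median of 256 bp. Chemokines and interleukins (20 of 68), cytochrome P450 genes of families 2 to 4 (20 of 77) and kallikreins (6 of 27) had shares of 29.4%, 26% and 22.2%. These lie near the 25.3% of all low CpG genes, and 46, 64 and 26 genes of these lists were of that class. Promoters were repeated for 121 of 327 vomeronasal receptors (37%) and 22 of 64 defensins (34.4%), against 5.66% of all genes and 14.3% of low CpG genes, whereas olfactory receptors, at 55 of 1128 (4.88%), lay below both.

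The numbered zinc finger genes, many of which encode repressors of transposable elements, nearly all had a promoter peak as well. Of 358 such genes 333 (93.0%, interval 89.9 to 95.2) had a promoter peak, with a median width of 1130 bp, and 188 were of the high CpG class. Promoters were repeated for 41 of the 358, of which 24 had a peak and 17 had none, among the latter Zfp965, Zfp966, Zfp967 and Zfp968.

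**Figure D5:**
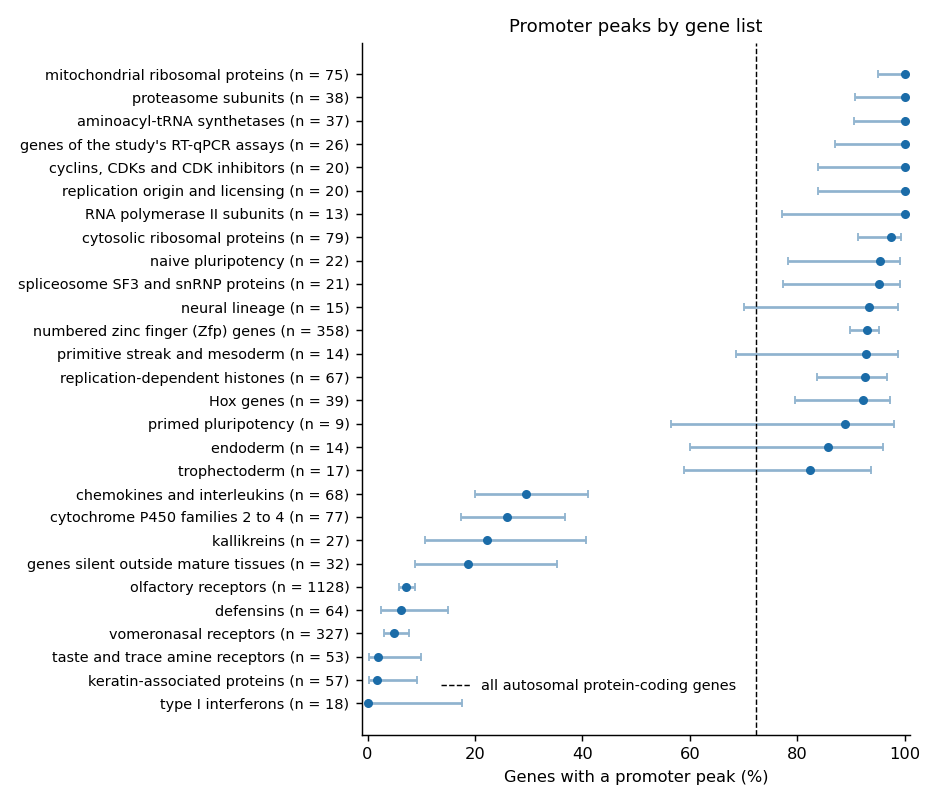
Share (%) of genes with a promoter peak in each of 28 gene lists (points, with Wilson 95% intervals) against the share among all 20807 autosomal protein-coding genes (dashed line, 72.3%). The points of broadly used genes and of developmental regulators lie to the right of the line, between 82.4% and 100%. The intervals of the primed pluripotency, trophectoderm, endoderm and mesoderm lists include the line. Lists of receptors, secreted defence proteins and mature-tissue genes lie to the left, between 0% and 29.4%. These are mostly low CpG genes, of which 25.3% had a peak in all.

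Sequence elements of core promoters were then counted in the 300 bases from 250 before to 50 after the reference TSS. They were the GC box (GGGCGG, bound by Sp factors), the CCAAT box (CCAAT, bound by NF-Y), the ETS motif (CCGGAAGT), the NRF1 motif (GCGCATGCG) and the YY1 motif (AAGATGGCG), each on either strand, and the TATA box (TATAAA), in the direction of transcription with its first base 40 to 20 bases before the TSS. None of these holds another. Over all 20807 promoters 46.3% held a GC box, 38% a CCAAT box, 5.09% an ETS, 2.26% an NRF1 and 1.88% a YY1 motif, and 2.51% a TATA box.

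Within the high CpG class, bidirectional promoters carried more ETS and YY1 motifs than one-strand promoters. The window of a bidirectional promoter could also cover the start of the partner gene, as divergent TSSs lay a median of 104 bp apart. The part of this in the counts was not tested. An ETS motif was present in 142 of 981 bidirectional (14.5%) and 633 of 8746 one-strand promoters (7.24%), a difference of 7.85 ± 5.64 percentage points over autosomes (adjusted p = 5.67e-05, exact permutation test, higher on 18 of 19). YY1 motifs were present in 5.20% and 2.80%, a difference of 2.52 ± 4.01 points (adjusted p = 0.0155, exact permutation test, 15 of 19). CCAAT boxes were in 40.8% and 35.7% (5.23 ± 9.69 points, adjusted p = 0.0462, exact permutation test, 13 of 19), which did not pass the threshold of 0.05 without chromosome 14 (5.21 points, adjusted p = 0.0638) or in a longer window. GC boxes were in 71.8% and 72.3%, NRF1 motifs in 4.69% and 3.78% and TATA boxes in 0.714% and 0.903%, with adjusted p of 0.599, 0.627 and 0.203 in the same permutation test. Among the bidirectional promoters, Alyref and Anapc11 hold the ETS motif on the minus strand, within the letters shown above. Cog8 and Nip7, genes of Golgi transport and ribosome assembly 188 bp apart, show it on the plus strand, in capitals. This pair has the next highest CpG o/e among the pairs with the motif between their TSSs that could be shown. These were high CpG pairs over 30 bp apart, with no further gene at the peak and no exon between the TSSs. Names starting Gm or ending Rik were passed over. The pair was chosen after the values were seen.
Cog8 and Nip7, chr8:107056675-107056891, plus strand: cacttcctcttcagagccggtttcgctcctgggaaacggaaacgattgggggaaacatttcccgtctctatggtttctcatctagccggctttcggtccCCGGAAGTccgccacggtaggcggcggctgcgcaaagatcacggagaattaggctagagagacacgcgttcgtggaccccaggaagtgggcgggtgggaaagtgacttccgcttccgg

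In the low CpG class, the reference promoters of genes with and without a peak at any TSS differed in the opposite way for GC and TATA boxes. The peak of a gene could lie at another TSS than the one searched for motifs. GC boxes were present at 20.8% of 1631 genes with a peak (interval 18.9 to 22.9) and 5.46% of 4813 without (4.86 to 6.14). TATA boxes were present at 3.19% (2.44 to 4.16) and 6.40% (5.74 to 7.13). CCAAT boxes were in 34.3% and 41.3%. These shares are descriptions without a test. In the high class only 3 autosomes had at least 10 genes without a peak, and with 3 autosomes the exact permutation test cannot go below 0.25. On these, GC boxes were present in 70.4 ± 3.47% of genes with a peak and in 28.5 ± 27.4% of those without (adjusted p = 0.295, exact permutation test). With a limit of 500 bp all 19 autosomes entered, and the difference was 18.1 points (adjusted p = 0.000477, exact permutation test). Over all autosomes the counts were 71.5% of 10415 and 42.5% of 113.

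The extremes of width and CpG content were found at genes of varied function. The widest single promoters were those of Kif26b, a kinesin (3782 bp), Tubb5, a tubulin (3474 bp), and Jun, an AP-1 factor (3451 bp). The widest multiple ones belonged to Efna5, an ephrin (3835 bp), Ptma, prothymosin alpha (3722 bp), and Adgrl2, an adhesion receptor (3423 bp), and the widest bidirectional ones to Zbtb1 and Zbtb25 (2651 bp), Rdh10 and Rpl7 (2629 bp), and Hist1h2bb and Hist1h3c (2541 bp). All but Tubb5, of the intermediate class, were of the high CpG class. Genes with provisional names were passed over, among them Gm10719, named after its value was seen, whose single promoter peak of 38206 bp was the only one above 5 kb. The highest CpG o/e at single promoters was 1.18 for Hnrnpab, 1.17 for Acvr2a, an activin receptor, and 1.14 for Rbmxl2, at multiple ones 1.19 for Srsf6, 1.18 for Ranbp9 and 1.14 for Qk, and at bidirectional ones 1.16 for Fancf and Gas2, 1.13 for Alyref and Anapc11 and 1.12 for B3galt6 and Sdf4. The 5 low CpG single promoters with the lowest ratio were at Dtna (344 bp wide), Ythdc1 (217 bp), Olfr552 (216 bp), Prex2 (199 bp) and Psg25 (238 bp), with ratios between 0 and 0.017. At Prex2 93.0% of the peak was repeat-masked.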

How the data were processed

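The authors aligned paired-end ATAC-seq reads of 54 samples to GRCm38 with STAR 2.6.1c, removed duplicates with Picard, called peaks with MACS2 2.1.1.20160309 and merged them with bedtools. The deposited values are start and end positions in bp, without counts or signal. Depth is therefore unknown, and deeper or more libraries lengthen a merged list. It was not stated if calling was done per library or on pooled reads. The authors' methods describe removing peaks that overlapped blacklisted regions or peaks of Input samples and peaks above 5 kb. The deposited list still held 10 autosomal peaks above 5 kb, which were kept, and the other overlaps were not checked.

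Here peaks were joined to GENCODE M21 and to the GRCm38.p6 sequence with Python 3.11.15, numpy 2.4.6, pandas 2.3.3 and scipy 1.17.1. Peak centres were taken as the integer midpoint. The reference transcript of a gene had the best APPRIS tag, then CCDS and basic tags, then the greatest length. Autosomes with fewer than 10 items in a set were left out of its tests. Wilson 95% intervals cover counting error only. Tests were checked on simulated data.

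The peaks, gene lists and tests were chosen with earlier results of these data known. Named genes were the members of lists with at most 30 genes, those against the majority of larger lists, the 3 widest and 3 most CpG-rich peaks of each layout, the 5 genes with the most promoter peaks, and the 5 extremes of CpG content. The neural list is not reported here beyond its share in the plot of gene lists. Names starting Gm or ending Rik were passed over. The alternatives varied the distance limit, transcripts, peak widths, genes, CpG windows and classes, and the motif window.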

Additional observations from a re-analysis of the deposited data

How the results depend on the processing

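Of 161 alternative tests on 18 or 19 autosomes, 148 kept their direction and their side of the threshold. Another 42 rested on 2 to 4 autosomes, which cannot pass the threshold, and say nothing of stability. The remaining 16 values had no test. The number of promoter peaks ran from 15311 to 24529, within 1.5 times of the main number. The share of genes with a promoter peak was 68.6% with a limit of 500 bp, 76.4% with 2500 bp, 71% with coding transcripts only, 68.6% when a TSS had to lie inside the peak, 77.2% without olfactory and vomeronasal receptors and 75.7% for promoters that were not repeated. All layout, class and position differences kept their direction and passed the threshold, although within the high CpG class those of width between layouts fell to between 34.4 and 89.5 bp and those of CpG o/e to between 0.0081 and 0.030. With coding transcripts only, the excess over single promoters was 269 bp and 0.173 for bidirectional and 135 bp and 0.079 for multiple ones, and that of upstream over downstream starts was 29.1 points. The difference between divergent and other high CpG genes passed the threshold at 500 bp (2.24 points), at 2500 bp (0.751) and for promoters that were not repeated (0.441), and was 0.372 points without chromosome 14, where it did not pass. The CCAAT difference between bidirectional and one-strand promoters did not pass at 2500 bp (4.03 points), with classes from CpG o/e (5.30), in the longer window (1.87) and without chromosome 14 (5.21). Between high CpG genes with and without a peak, a limit of 500 bp let all 19 autosomes enter and GC boxes (18.1 points), ETS (4.78), NRF1 (2.74), YY1 (1.80) and TATA boxes (-2.32) passed. The CCAAT difference turned from -7.25 to 0.0786 there, to 13.6 at 2500 bp and to 8.13 with classes from CpG o/e, and that of NRF1 turned to -0.132 with coding transcripts only. The causes were not tested. The alternatives without chromosome 14, without repeated promoters and within the high CpG class were chosen after seeing the data. No paired analysis was possible because the list holds no values per sample or replicate, and no replicate could be left out for the same reason. Without depth, absence of a peak does not show closed chromatin.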
